A study of Mus musculus with 14 samples.

Results

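The genes described here encode the urokinase plasminogen activator system: the protease urokinase (Plau), its cell surface receptor (Plaur), the tissue-type activator (Plat) and the protease inhibitors Serpine2 and Serpinb2. They were taken by gene symbol, with 1 probe set per gene. Of these 5 genes, 4 had a probe set with a single gene symbol on both array designs, among 22180 genes named on the first design and 19938 on the second. Serpine2 matched no such probe set and was not analysed here. Each of the 4 genes had exactly 1 such probe set on each design, so the choice of the set with the highest mean never came into play. The genes were proposed with results of these data known, among them the difference of Plau between Res 499 and control tumours, so that difference is given as a description and supports nothing further.

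Expression was measured in 14 subcutaneous tumours of B16-F10, a pigmented mouse melanoma line, grown in C57BL/6 mice. The resistant sublines Res 499 and Res 177 came from unirradiated tumours that withstood or relapsed after radiation of the opposite tumour (20 Gy on day 8) combined with the CTLA4-blocking antibody 9H10 (days 5, 8 and 11), and the controls were tumours of sensitive B16-F10 cells. The first array design held 4 control tumours (replicates 2 to 5), 7 Res 499 tumours and 1 Res 177 tumour (replicate 2), and the second held 1 control and 1 Res 177 tumour (replicate 1 of each). The labels give neither the age of the mice nor whether a subline is a single clone, whether its tumours grew in separate mice, or whether the tumours measured were themselves treated. Spread between tumours is all that the p-values weigh, and part of it may be technical. The comparisons ask which genes of the system differ in tumours regrown from resistant cells, and whether the sublines share the difference.

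Urokinase is secreted as an inactive proenzyme and is held at the cell surface by its receptor, a protein with a glycolipid anchor. There it turns plasminogen into plasmin, which dissolves fibrin, degrades matrix proteins and activates matrix metalloproteinases. The tissue-type activator makes plasmin mainly on fibrin clots, and serpins such as Serpinb2 and Serpine2 trap the activators in covalent complexes. In tumours these proteins are made by cancer cells as well as by macrophages, fibroblasts and endothelial cells.

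Levels below are log2 values, 1 unit of which is a doubling, and differences are between group means of such values. RMA levels of different probe sets cannot be set against each other, so each gene is compared only with itself. The mean level of the 7 melanoma markers examined was 12.37 to 12.76 per tumour of the first design. Markers of host cells varied more. Leukocyte content, the mean level of 5 pan-leukocyte genes, was 6.13 to 6.68 in control tumours, 6.08 to 8.14 in Res 499 and 7.41 in Res 177. It exceeded every control in 5 of 7 Res 499 tumours, all but replicates 6 and 7. In a bulk tumour, fewer cells of a type and less RNA per cell cannot be told apart.

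Plau, the urokinase gene, lay higher in every Res 499 tumour than in any control. Control replicates 2, 3, 4 and 5 had levels of 7.23, 7.16, 7.43 and 7.28. The 7 Res 499 tumours ran from 7.86 in replicate 7 over a median of 8.25 to 9.01 in replicate 1. The gap between the highest control and the lowest Res 499 tumour was wider than the whole range of the controls, 0.27. The mean was 7.27 ± 0.11 (SD, n = 4) in control and 8.32 ± 0.41 (SD, n = 7) in Res 499, a difference of 1.04 (SE 0.19, 95% confidence interval 0.64 to 1.45), or 2.06-fold. In the limma fit over all genes its adjusted p was 0.0438. Of the 4 genes Plau was the only one called in this comparison, and the only one whose groups did not overlap. Among 16635 genes tested, 0.355% were called in either direction, 0.144% as higher, and 2.39% had groups that did not overlap (1.23% with Res 499 above control). The call was near the threshold: it was lost in 7 of the 12 fits that left out 1 tumour (control replicates 2, 3, 4 and 5 and Res 499 replicates 3, 4 and 6), while the difference in those 12 fits stayed between 0.93 and 1.12.

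Res 499 tumours also differed more among themselves in Plau than controls did. The SD of Plau was above that of 94.8% of the genes tested within Res 499, and above that of 38.8% within the controls. Host cell markers varied among the same tumours. Res 499 replicate 7, at a Plau level of 7.86, had leukocyte, macrophage, neutrophil, fibroblast and endothelial marker means of 6.08, 6.87, 5.06, 6.44 and 7.66, none above the highest control. Replicate 6, at a Plau level of 8.25, had a leukocyte mean of 6.61 and a fibroblast mean of 6.79, within the control ranges, and a neutrophil mean of 5.25, above every control. Replicate 4, at a Plau level of 8.40, had a fibroblast mean of 6.40, below every control. Its leukocyte mean of 6.75 and neutrophil mean of 5.14 were just above the highest controls, at 6.68 and 5.12. Only 4 of the 7 neutrophil markers were bright enough to be tested. The other 4 Res 499 tumours had leukocyte, macrophage and fibroblast means above every control. With leukocyte content as a covariate the Plau difference was 0.87 and its adjusted p in limma 0.147. The part of host cells in the Plau level of Res 499 was not tested beyond these values.

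**Figure D1:**
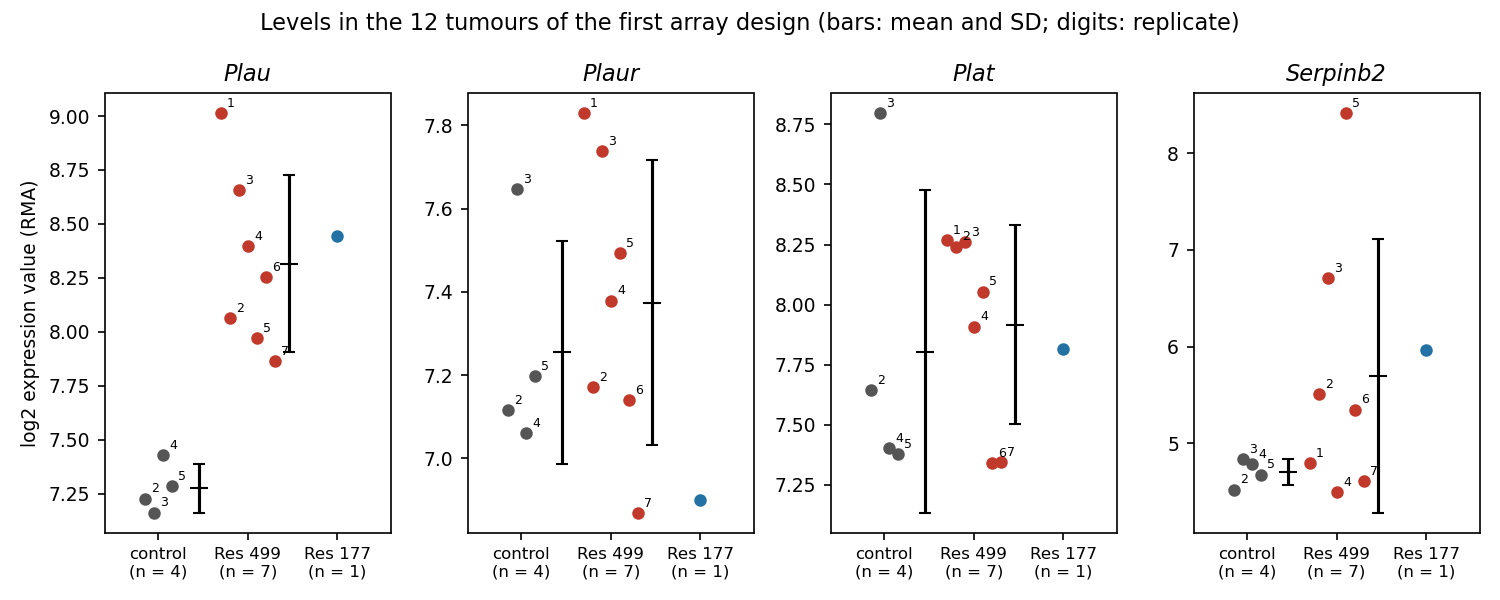
Log2 expression values of Plau, Plaur, Plat and Serpinb2 (y axis, a separate scale per gene) in control, Res 499 and Res 177 tumours of the first array design, 1 point per tumour, with digits for the replicate and bars for the group mean and SD. Plau in Res 499 starts at 7.86, above the highest control at 7.43, while Res 499 and control overlap for the other 3 genes.

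Res 177 tumours had high Plau on both designs. On the first design the single Res 177 tumour was at 8.45, above every control and inside the Res 499 range. It differed from the controls by 1.17 (SE 0.33, 95% confidence interval 0.45 to 1.90), with an unadjusted p of 0.00412 and an adjusted p of 0.640 in limma. The SE of this single tumour is borrowed from the spread of the other groups. On the second design, measured in other tumours and normalized apart, Plau was at 8.69 in Res 177 and 6.94 in control, 3.35-fold higher, with no test possible for 1 tumour a group. That difference of 1.74 was exceeded by 50 of 14953 genes, and 1.67% of genes differed by more than 1 in either direction (1.22% as higher). The Plau values of Res 499 and Res 177 on the first design differed by -0.13 (SE 0.32, 95% confidence interval -0.82 to 0.56, adjusted p = 1 in limma), an interval that leaves room for differences in either direction. By group mean the order of Plau was control, Res 499, Res 177, with the last pair not separated beyond the spread between tumours.

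Some markers of other cells were also higher in both Res 177 tumours. Keratinocyte markers (5 of 6 measured, 4 of them called as higher by limma on the first design) averaged 7.81 in the first-design Res 177 tumour against 5.26 to 5.49 in the other 11, and 7.42 against 6.15 in control on the second design. Leukocyte content on the second design was 7.97 in Res 177 and 6.85 in control, and the macrophage mean 7.94 and 7.05. On the first design the macrophage mean of Res 177 was 8.12, above every control. Endothelial markers were at 7.80 in Res 177 on the first design, within the control range of 7.70 to 8.09, and at 7.51 against 7.73 in control on the second. Neutrophil markers were at 5.35 on the first design, above every control, and at 5.69 in both tumours of the second. Fibroblast markers were at 7.67 on the first design, above every control, and at 7.14 against 6.92 on the second. The part of these cells in the Plau level of Res 177 was not tested.

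Plaur, the urokinase receptor, did not differ between the groups as Plau did. Its promoter is shown because it holds a match to the AP-1 motif TGANTCA, whose binding factors are among the pathway genes given below. The match, in capitals, begins 69 bases before the transcription start in the 250 bases upstream of it (RefSeq, GRCm38.p6, chr7:24462233-24462482, plus strand).
Plaur: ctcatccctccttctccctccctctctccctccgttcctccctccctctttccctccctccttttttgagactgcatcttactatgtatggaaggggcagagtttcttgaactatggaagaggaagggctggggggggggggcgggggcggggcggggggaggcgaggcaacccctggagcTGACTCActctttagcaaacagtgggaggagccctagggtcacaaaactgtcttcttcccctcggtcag
Searched on both strands, where it reads alike, TGANTCA had a match in 6.75% of 32851 RefSeq mouse promoter windows of this length. A match is a string of letters and no evidence of binding. No promoter entry was found for Plau or Plat.

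Control replicates 2 to 5 had Plaur levels of 7.12, 7.65, 7.06 and 7.20. Res 499 tumours ran from 6.87 in replicate 7 over a median of 7.38 to 7.83 in replicate 1. The groups overlapped, with 2 of 7 Res 499 tumours above every control and 1 below. The difference was 0.12 (SE 0.18, 95% confidence interval -0.26 to 0.50, adjusted p = 0.838 in limma), an interval that a difference as large as that of Plau lies outside. Spread within groups was wide, with an SD above that of 89.3% of genes in control and 91.7% in Res 499. In Res 177 the level of 6.90 was below every control on the first design, at a difference of -0.36 (SE 0.32, adjusted p = 1 in limma), or -0.64 with leukocyte content as a covariate. On the second design Res 177 was at 7.79 and control at 7.58, a difference of 0.21 in the other direction. The Res 177 tumours thus lay on opposite sides of their controls on the 2 designs.

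Plat, the tissue-type activator, spread widely within groups, with an SD above that of 99.5% of genes in control and 95% in Res 499. Control levels were 7.64, 8.80, 7.40 and 7.38 in replicates 2 to 5. Replicate 3 held the highest Plat level of all 12 tumours, and the highest control level of Plaur. Res 499 tumours ran from 7.34 in replicate 6 over a median of 8.05 to 8.27 in replicate 1, inside the control range except for replicates 6 and 7 just below it. The difference was 0.11 (SE 0.28, 95% confidence interval -0.49 to 0.71, adjusted p = 0.907 in limma), and its size and sign turned on single controls: it was 0.44 without replicate 3 (adjusted p = 0.503 in limma), -0.022 without replicate 4 and -0.031 without replicate 5. The Res 177 tumour was at 7.81, a difference of 0.0087 (SE 0.50). On the second design Plat was at 8.10 in Res 177 and 7.40 in control, a difference of 0.70 that was exceeded by 2.33% of genes.

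Serpinb2, the plasminogen activator inhibitor of the ovalbumin-type serpins, is known from activated macrophages and keratinocytes. It was low in all controls and scattered over a wide range in Res 499. Its upstream bases are printed because they too hold TGANTCA, in capitals, beginning 94 bases before the first of its RefSeq starts (GRCm38.p6, chr1:107511173-107511422, plus strand). The same match lies 181 bases before a second annotated start. The upstream window of Serpine2 held no TGANTCA.
Serpinb2: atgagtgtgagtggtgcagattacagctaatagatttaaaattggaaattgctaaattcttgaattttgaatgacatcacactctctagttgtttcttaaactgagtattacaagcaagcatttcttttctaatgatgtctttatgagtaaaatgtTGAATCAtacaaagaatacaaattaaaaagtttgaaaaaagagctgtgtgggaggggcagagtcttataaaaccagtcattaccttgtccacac
In all, 3 of the 5 genes had a promoter entry. A further first-design probe set that carries the symbols Serpinb2 and Serpinb10 together was not used.

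Control replicates 2 to 5 had Serpinb2 levels of 4.52, 4.83, 4.78 and 4.68, a range of 0.31. Res 499 tumours ran from 4.49 in replicate 4 over a median of 5.35 to 8.41 in replicate 5, a range of 3.92. Replicate 3 followed at 6.70, then replicates 2 and 6 at 5.51 and 5.35, while replicates 1, 4 and 7 at 4.79, 4.49 and 4.61 lay at the level of the controls. The SD was 1.41 in Res 499 (n = 7), above that of 99.8% of genes tested, and 0.14 in control (n = 4), near the median of all genes, 0.13. The mean difference of 0.99 (SE 0.62, 95% confidence interval -0.35 to 2.33, adjusted p = 0.546 in limma) did not pass the threshold. Without replicate 5 it was 0.54. The control mean of 4.70 lay under the level of 4.94 below which genes were left out, so Serpinb2 entered the test through the Res 499 and Res 177 tumours.

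Serpinb2 in Res 177 stood at 5.97 on the first design, above every control and 1.26 above their mean (SE 1.10, adjusted p = 1 in limma). On the second design it was at 5.71 in Res 177 and 5.50 in control, both under that design's filter level of 5.86. Markers of myeloid cells moved with part of this pattern. The mean of the 9 macrophage markers measured (of 10 listed, 0 of 9 called by limma, 9 of 9 with a positive difference in Res 499) was 8.29, 8.62, 8.79 and 8.68 in Res 499 replicates 1, 2, 3 and 5, against 6.94 to 7.50 in control tumours and 6.87 to 7.29 in the other 3 Res 499 tumours. The mean of the 7 neutrophil markers was 5.05 to 5.12 in control and 5.17, 5.11, 5.29, 5.14, 5.65, 5.25 and 5.06 in Res 499 replicates 1 to 7, with Camp under the filter level on every array. Only 4 of the 7 neutrophil markers passed the filter on the mean level. Replicates 5, 3 and 6 had the highest neutrophil means, and all had Serpinb2 above every control. Replicate 2 had Serpinb2 above every control with a neutrophil mean inside their range, and replicates 1 and 4 the reverse. With leukocyte content as a covariate the Serpinb2 difference was 0.13 in Res 499 and 0.33 in Res 177. The part of myeloid cells in the Serpinb2 level was not tested beyond these values.

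**Figure D2:**
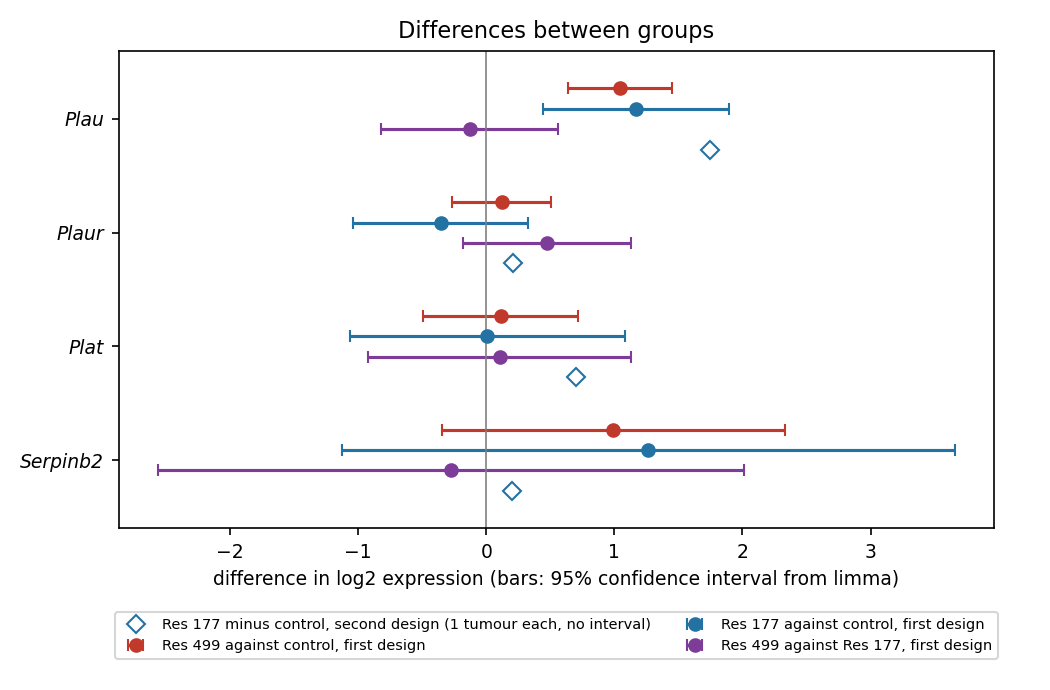
Differences in log2 expression (x axis) of the 4 genes for 3 group comparisons on the first array design, with 95% confidence intervals from limma, and as open diamonds the difference between the Res 177 and the control tumour of the second design. For Plau, Res 499 and Res 177 lie above control by 1.04 and 1.17, and the diamond is at 1.74. The Plau interval for Res 499 against Res 177 and all intervals of the other genes cross 0.

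Of the 4 genes, limma called 0 in Res 177 against control, where 0.21% of genes were called, and 1 of them (Plau) had an unadjusted p under 0.05, as 4.08% of all genes did. Res 499 against Res 177 also called 0 of 4, against 0.234% of all genes, with 0 at an unadjusted p under 0.05, where 2.93% of all genes were. The difference between the sublines was 0.48 for Plaur (SE 0.30, 95% confidence interval -0.18 to 1.13), 0.10 for Plat (SE 0.47) and -0.27 for Serpinb2 (SE 1.05). When tumours were grouped by the response label, resistant (8) against sensitive (4), Plau was called as higher at 1.06 (SE 0.18, adjusted p = 0.0241 in limma), where 0.613% of genes were called and 0.289% as higher. Without control replicate 2, 3 or 4 that adjusted p was 0.0751, 0.0732 and 0.088. The other 3 genes were not called, with differences of 0.06 for Plaur, 0.10 for Plat and 1.03 for Serpinb2. Both comparisons with control use the same 4 control tumours, and 7 of the 8 resistant tumours are Res 499, so these results are not independent of each other.

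Within the 7 Res 499 tumours the genes were set against each other and against leukocyte content, 10 relations in all, by exact two-sided permutation of pairings. Plat had the closest relation to leukocyte content, with Pearson's r = 0.92 (exact permutation p = 0.00913, adjusted p = 0.0913) and Spearman's rho = 0.75 (exact permutation p = 0.0663, adjusted p = 0.220). Without replicates 6 and 7, which are farthest from the median leukocyte content, r was 0.87. Plaur had r = 0.70 (exact permutation p = 0.0893, adjusted p = 0.223), a rho of 0.64 (exact permutation p = 0.139, adjusted p = 0.278) and r = 0.18 without the same tumours. Without single tumours r was 0.48 to 0.92. The 5 tumours left span a narrower range, so whether that relation rested on replicates 6 and 7 cannot be told. Plau had r = 0.39 (exact permutation p = 0.394, adjusted p = 0.553), rho = 0.36 (exact permutation p = 0.444, adjusted p = 0.553) and r = -0.022 without them. Serpinb2 had r = 0.55 (exact permutation p = 0.164, adjusted p = 0.328), rho = 0.71 (exact permutation p = 0.0881, adjusted p = 0.220) and r = 0.48 without them.

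Plau and Plaur, ligand and receptor, had r = 0.83 among Res 499 tumours (exact permutation p = 0.0226, adjusted p = 0.113) and rho = 0.75 (exact permutation p = 0.0663, adjusted p = 0.220). Replicates 1 and 3 were the highest tumours for both genes and replicate 7 the lowest. Without replicates 1 and 3 r was 0.41, and without single tumours it was 0.72 to 0.97. The 5 tumours left span a narrower range of Plau, so whether the relation rested on replicates 1 and 3 cannot be told. Plaur and Plat had r = 0.78 (exact permutation p = 0.0425, adjusted p = 0.142), rho = 0.86 (exact permutation p = 0.0238, adjusted p = 0.220) and r = 0.56 without replicates 1 and 7. Plau and Plat had r = 0.52, and the 3 relations of Serpinb2 with the other genes had r from -0.22 to 0.33. None of the 10 relations passed after Benjamini-Hochberg adjustment, while 3 had an unadjusted p under 0.05 by Pearson's r and 1 by Spearman's rho.

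**Figure D3:**
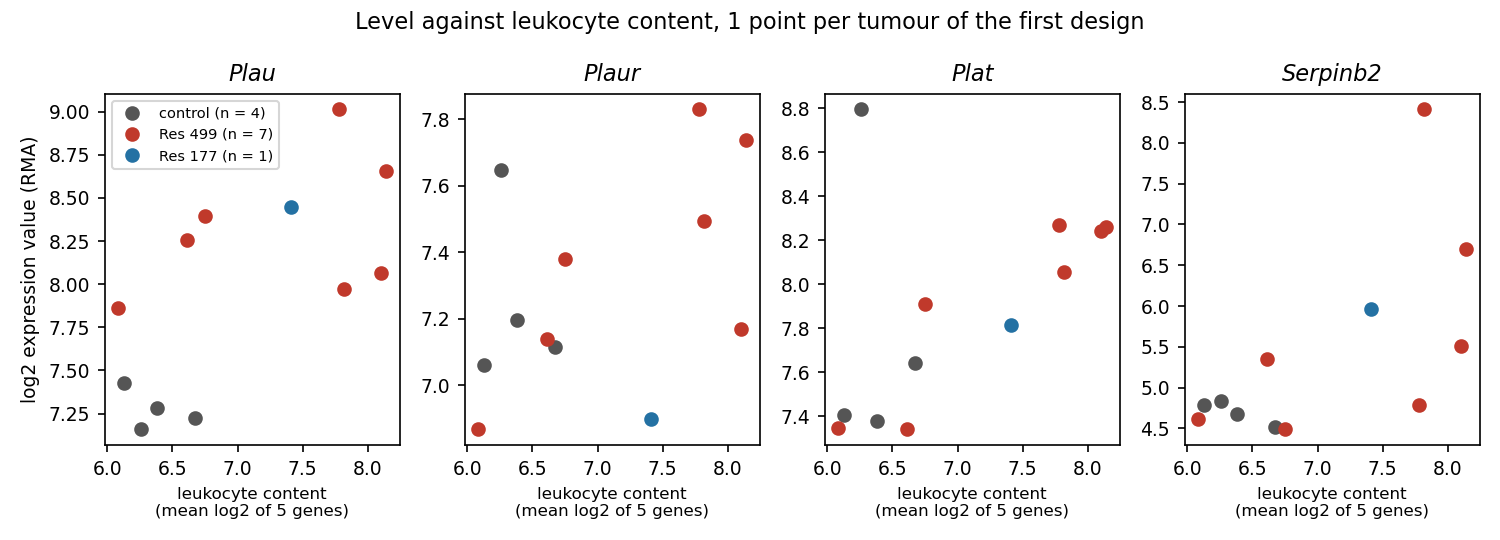
Log2 expression value of each gene (y axis) against leukocyte content, the mean log2 level of 5 pan-leukocyte genes (x axis), 1 point per tumour of the first array design, coloured by group. In the Plau panel all Res 499 tumours lie above the controls, at leukocyte contents from 6.08 to 8.14. In the Plat panel r among Res 499 tumours was 0.92 (adjusted p = 0.0913 by exact permutation). The highest Plat level, 8.80 in control replicate 3, lies at a leukocyte content of 6.26.

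Genes with the most similar levels were sought as a description. Over the 12 tumours Plau was most like Meox1, a homeobox gene (r = 0.93), Mcoln3, an endolysosomal cation channel (r = 0.92), and Tmcc3 (r = 0.92). Over deviations from the group mean in the 11 control and Res 499 tumours it was most like Unc5b, a netrin receptor (r = 0.98), Cad, which encodes the first enzyme of pyrimidine synthesis (r = 0.95), and Tgfb1i1, a focal adhesion protein gene (r = 0.94). Plaur was most like Smurf1 (r = 0.92), Syne3 (r = 0.90) and Steap3 (r = 0.89), and within groups Htra2 (r = 0.95), Steap3 (r = 0.92) and Adamts14 (r = 0.91).

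Plat was most like Nr1h4, the bile acid receptor gene (r = 0.94), Gstk1 (r = 0.92) and Emp1 (r = 0.90), and within groups Nr1h4 (r = 0.99), Slc27a1, a fatty acid transporter gene (r = 0.97), and Emp1 (r = 0.94). Serpinb2 was most like Ifitm6 (r = 0.94), Slfn4 (r = 0.93) and Arg1, the arginase of myeloid cells (r = 0.93). By rank the likeness was lower, with Spearman's rho of 0.73, 0.70 and 0.75 for these genes. The control means of Serpinb2 and Slfn4, 4.70 and 4.82, lay under the filter level of 4.94. The highest Serpinb2 level, 8.41 in Res 499 replicate 5, can weigh heavily on r. Which cells made Serpinb2 was not tested. Within groups Serpinb2 was most like Ifitm6 (r = 0.96, rho = 0.93), Slfn4 (r = 0.94, rho = 0.75) and Sgsm1 (r = 0.93, rho = 0.81). Ifitm6 and Slfn4 are known from monocytes and macrophages. All these values share the same arrays, were picked as the highest among the 16635 genes tested and come with no test.

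Around these genes, 71 others of the pathway were listed in 7 groups by role, of which 62 were tested, 3 lay below the filter and 6 had no probe set with a single symbol and were not analysed here. In Res 499 against control 0 rose and 1 fell, with 12 of 62 at an unadjusted p under 0.05 in limma, as were 13% of all genes, and the median difference was 0.037, against 0.0053 for all genes tested. Plasminogen (Plg), the substrate, differed by 0.012 (SE 0.085) from a control mean of 5.46. Of the 17 tested genes of plasminogen, its receptors and co-receptors, 0 were called and the median difference was 0.037. Their differences ran from -0.36 in Igf2r (SE 0.22) to 1.13 in Itgam (SE 0.44). Plgrkt, a plasminogen receptor, differed by 0.037 (SE 0.12). Anxa2 and S100a10, which form a cell surface complex that binds plasminogen and the tissue-type activator, differed by 0.073 (SE 0.14) and 0.33 (SE 0.19). Lrp1, which clears urokinase bound to its inhibitors, differed by 0.035 (SE 0.36), with an SD of 0.78 among Res 499 tumours. In limma 3 of the 17 had an unadjusted p under 0.05.

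Other inhibitors had a median of 0.053 with 0 of 5 called (2 at an unadjusted p under 0.05 in limma), and activators of pro-urokinase a median of 0.051 with 0 of 5 called (1 unadjusted). Among the other inhibitors the differences ran from -0.064 in Serpinf2 (SE 0.082) to 0.79 in Serpinb9 (SE 0.23) and 0.87 in Serpinb8 (SE 0.24). Matrix metalloproteinases and their inhibitors had a median of 0.28 with 0 of 12 called (1 unadjusted in limma). Mmp14, the membrane-bound collagenase, differed by -0.21 (SE 0.11), Mmp9, a gelatinase that plasmin can activate, by 0.11 (SE 0.09) and Timp1, an inhibitor of these enzymes, by 0.30 (SE 0.22). The collagenase Mmp13, named after its values were seen, was 2.31 above the control mean in Res 177 (SE 0.62, not called) and 2.00 above control on the second design. In Res 499 its difference was 0.40 (SE 0.35). The highest Res 499 tumour was at 7.47 and the first-design Res 177 tumour at 7.89.

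AP-1 and ETS factors, for which binding sites in Plau and Plaur regulatory regions are known, had a median of -0.10 with 1 of 12 called. In limma 4 of the 12 had an unadjusted p under 0.05, where 13% of all genes did, and 2 of the 12 had a positive difference. Etv1 and Etv4, named after their values were seen, differed by -0.38 (SE 0.12) and -0.35 (SE 0.11) in Res 499 and were not called. In Res 177 they differed from control by -0.24 (SE 0.21) and -0.63 (SE 0.20) on the first design. On the second design these differences were -0.66 and -0.65. Etv5 fell in Res 499, from 9.30 ± 0.18 (SD, n = 4) to 8.15 ± 0.24 (SD, n = 7), a difference of -1.15 (SE 0.13, adjusted p = 0.00445 in limma), and all 7 Res 499 tumours lay below every control. In Res 177 it differed from control by -0.86 (SE 0.23, adjusted p = 0.478 in limma) on the first design and by -1.001 on the second. With the mean of all its probe sets in place of the brightest, the difference was -0.63 in Res 499 (adjusted p = 0.00786 in limma) and -0.50 in Res 177. Ets1 differed by -0.0055 (SE 0.086) in Res 499. Growth factors freed or activated by plasmin or urokinase had a median of -0.013 with 0 of 7 called in Res 499 (1 unadjusted in limma). Tgfb2, a latent growth factor, differed by -0.67 (SE 0.15, adjusted p = 0.0770 in limma), and with the Res 177 tumour added it was called as lower in resistant tumours at -0.67 (adjusted p = 0.0490 in limma). That call was lost in 15 of 21 alternative analyses. Its second-design difference between Res 177 and control was -0.96. Receptor-like Ly6 family genes near Plaur had a median of 0.010 with 0 of 4 called and 0 at an unadjusted p under 0.05 in limma. Res 177 against control, and Res 499 against Res 177, called 0 of the 62 genes, with 7 and 5 at an unadjusted p under 0.05 in limma, where 4.08% and 2.93% of all genes were.

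**Figure D4:**
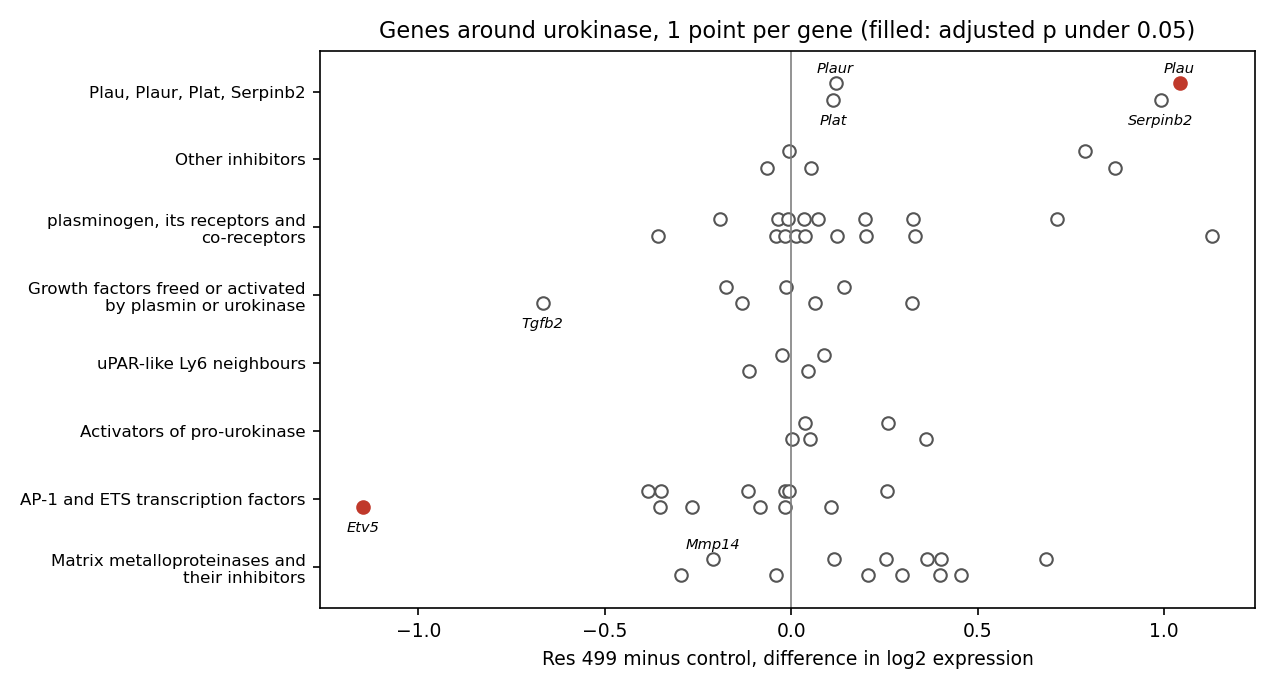
Difference in log2 expression between Res 499 and control tumours (x axis) for the 4 genes of the urokinase system and 62 further pathway genes grouped by role (y axis), 1 point per gene, filled where the adjusted p was under 0.05. Plau at 1.04 and Etv5 at -1.15 are the only filled points; Serpinb2 lies at 0.99 and is open.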

How the data were processed

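RNA of 14 tumours was hybridised to Affymetrix whole-transcript arrays of 2 designs (12 and 2 tumours). As deposited, each array holds log2 values, 1 per probe set. The submitters' processing notes name RMA and oligo as the tools of the authors. Their versions and any genome build are not given in the sources here, and the log2 scale was read from the range of values. The designs were normalized separately and never pooled. No 2 arrays were identical. Arrays have no sequencing depth, so precision depends on how many arrays there are and on the spread between tumours.

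GEO's platform annotation named a probe set where it gave 1 symbol (23521 of 41345 on the first design), with symbols updated through Entrez numbers. The lowest 25% of genes by mean, below 4.94 on the first design, were left out, and 16635 were tested with limma 3.58.1 in R 4.3.3 (lmFit, eBayes, 3 groups, or 2 for the response label), with Benjamini-Hochberg adjustment over all of them and a threshold of 0.05. The code was tested on simulated data. Relations within Res 499 used exact permutation in scipy 1.17.1. Replicate numbers follow the deposited order and only name a tumour. Promoters are from RefSeq.

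The genes, lists and tests were chosen with earlier results of these data known. Named were the 4 measured members, every listed pathway gene called in any comparison, 12 pathway genes whatever their values (10 had a named probe set), and the 3 genes most like each member, leaving out predicted genes, Riken clones, small RNAs, receptor multigene families and antigen receptor segments. A few further listed genes were named after their values were seen. Alternatives covered the filter, probe set, normalization, eBayes prior, array weights, threshold, leukocyte content as a covariate, and each tumour left out.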

Additional observations from a re-analysis of the deposited data

Results flagged for a closer look

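Of 30 combinations of a named gene with the control or Res 499 group, 1 held a tumour far from the rest of its group by Dixon's criterion, which chance passes in about 1 of 20 groups. Plgrkt, the plasminogen receptor, was at 8.12 in control replicate 3 and at 7.69 to 7.73 in the other 3 controls. The same tumour had the highest control levels of Plat and Plaur, at 8.80 and 7.65, which did not meet the criterion.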

How the results depend on the processing

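Plau kept its direction in all 21 alternatives to Res 499 against control, with differences from 0.87 to 1.12 and adjusted p from 0.0139 to 0.152 in limma. Its call was lost with no filter on dim genes (1.04), with arrays centred on their medians (1.04) and with leukocyte content as a covariate (0.87), where 0 genes of the system were called instead of 1; leaving out 1 tumour gave 0.93 to 1.12 and between 0 and 1 called. By the response label the count was also 0 with the covariate, and 0 to 1 without single tumours. With the covariate the differences of Plaur and Plat turned to -0.14 and -0.30 in Res 499, that of Plat to -0.44 in Res 177, and by the response label to -0.20 and -0.31. Without single tumours the small difference of Plat ran from -0.031 to 0.44 in Res 499, -0.13 to 0.34 in Res 177 and -0.044 to 0.43 by the response label, that of Plaur by the response label from -0.014 to 0.19, and r of Plau with Serpinb2 from -0.47 to 0.20. Serpinb2 kept its direction in all 20 alternatives in which it was tested (0.13 to 1.19); it was below the filter with the lowest 50% left out. Comparisons with Res 177 could not be fitted without its single tumour. The cause of these changes was not tested. Over all genes the count of 59 in Res 499 ran from 6 without control replicate 4 to 356 with array weights, the count of 102 by the response label from 9 to 330, and those of 35 in Res 177 and 39 between the sublines from 2 (lowest 50% left out) to 101 and 113 (no filter).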
